A study of Mus musculus with 4 samples.

Results

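The receptors of the common gamma chain and gp130 cytokine families were compared between tumor-infiltrating Tc9 and Tc1 cells at the level of their mRNA. The 10 genes were found by their symbols among the 15981 genes listed in any of the tables. They are the chains that form the receptors for IL-2, IL-4, IL-7, IL-9 and IL-15 (Il2ra, Il2rb, Il2rg, Il4ra, Il7r, Il9r and Il15ra), the IL-6 receptor with its signal-transducing partner gp130 (Il6ra and Il6st), and the IL-10-binding chain Il10ra. Both groups were CD8+ T cells of Thy1.1+ Pmel-1 mice on the C57BL/6 background, whose transgenic T cell receptor recognizes the melanocyte antigen gp100. Tc1 cells were cultured with recombinant human IL-2, and Tc9 cells were polarized with IL-4, TGF-β and an antibody against IFN-γ. After 5 days of culture, which ended with IL-2 for both, the cells were given intravenously to Thy1.2+ mice with subcutaneous B16 melanomas of 10 days, and Thy1.1+ cells were sorted from the tumors 14 days later. According to the methods for this tumor model, all mice also had cyclophosphamide before the transfer, and peptide-pulsed dendritic cells and further recombinant human IL-2 after it. The RNA of 6 mice was pooled into 2 samples per group, so a library is a pool and not 1 animal, and the methods do not say whether the 6 mice were those of a group or of both groups.

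The tables used here list their genes in the order of the identifier and end at different identifiers. All 10 receptor genes were reached by 3 libraries, Tc1 replicate 2, Tc9 replicate 1 and Tc9 replicate 2, and none was reached by the table of Tc1 replicate 1. For the receptor genes, Tc1 cells are therefore represented by 1 library. Each test over these 3 libraries assumes that this lone Tc1 library varied like the Tc9 libraries. Library depths were 30822953 to 31927162 expected counts. The sorted cells had the transcripts of CD8+ T cells, with Cd8a at 223 FPKM in Tc1 replicate 2 and 220 and 209 FPKM in Tc9 replicates 1 and 2. FPKM, fragments scaled by transcript length and by library depth, allows levels of different genes to be set side by side. Summed markers of other cells were low, at 4.71, 11.5 and 14.2 FPKM for 5 B cell genes and 6.35, 10.5 and 12.8 FPKM for 9 myeloid genes in Tc1 replicate 2, Tc9 replicate 1 and Tc9 replicate 2. Nearly all of this came from Cd79b and Cd68, whereas Ms4a1 had 2, 4 and 1 counts and 7 of the 9 myeloid genes had at most 3 counts in each of these libraries.

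Cytokine receptors of these families have no kinase activity of their own and signal through Janus kinases (JAKs) bound to their intracellular parts, which phosphorylate STAT transcription factors. Each receptor of the first family joins the common gamma chain, encoded by Il2rg, to a chain specific for its cytokine, and IL-2 and IL-15 also share the beta chain Il2rb, so that cytokines of the family draw on common subunits. IL-6 first binds its own receptor chain, and this complex then engages gp130, which mainly activates STAT3. In CD8+ T cells these receptors carry signals for growth, survival and memory formation.

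To show the DNA in front of the genes that the comparison turns on, the 250 bases upstream of the annotated start are printed for Il4ra and Il6ra, which had the largest increases in Tc9 cells. The window of Il7r, which holds the only match to a STAT site, belongs to a start 65 bases inside the outer end of the gene, and only its 185 bases outside the gene are printed. The sequences are from RefSeq for GRCm38.p6, the same assembly as the mm10 build named in the submitters' processing notes, and are written 5′ to 3′ on the strand of the gene. Il4ra lies on the plus strand at chr7:125552021-125552270, Il6ra on the minus strand at chr3:89913197-89913446 and the printed bases of Il7r on the minus strand at chr15:9529942-9530126. Capitals mark ATGNAAAT in Il4ra and TTCNNNGAA in Il7r, and no base of the Il6ra sequence is marked because none of the motifs searched was found there.
Il4ra: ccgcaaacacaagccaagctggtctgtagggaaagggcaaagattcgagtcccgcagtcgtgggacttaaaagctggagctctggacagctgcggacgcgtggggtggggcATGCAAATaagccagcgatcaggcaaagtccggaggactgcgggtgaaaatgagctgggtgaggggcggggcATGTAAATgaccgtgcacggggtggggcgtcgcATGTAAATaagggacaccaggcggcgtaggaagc
Il6ra: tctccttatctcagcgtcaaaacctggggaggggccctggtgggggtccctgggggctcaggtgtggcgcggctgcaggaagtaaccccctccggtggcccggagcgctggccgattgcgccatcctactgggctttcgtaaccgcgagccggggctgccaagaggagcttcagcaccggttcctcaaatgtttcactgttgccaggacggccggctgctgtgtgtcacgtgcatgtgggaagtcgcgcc
Il7r: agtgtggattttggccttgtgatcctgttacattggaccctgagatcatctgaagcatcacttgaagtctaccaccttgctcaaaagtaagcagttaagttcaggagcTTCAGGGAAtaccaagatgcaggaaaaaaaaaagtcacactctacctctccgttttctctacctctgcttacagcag

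These windows were available for 8 of the 10 receptor genes, with 9 windows in all since Il15ra has a pair of starts, and not for Il2rb and Il10ra. Only 5 of the 9 lie wholly outside their gene. Those of Il7r and of one Il15ra start lie partly inside it, and those of Il9r and of the other Il15ra start lie wholly inside it, in front of an internal start. On either strand, TTCNNNGAA, the spacing bound by most activated STATs, was present in 1 of the 9 windows, that of Il7r, at 142 to 134 bases upstream of this internal start and 77 to 69 bases in front of the gene, and in 7.02% of all 32851 windows. The same half-sites TTC and GAA with 4 bases between them, the wider spacing preferred by STAT6, were present in none of the 9 windows and in 5.85% of all windows. A pair of GAAA separated by 2 bases, as in interferon-response elements, was present in none of the 9 and in 2.98% of all windows. GGGCGG, the core bound by Sp1, was present in the windows of Il4ra and Il6st and in 32.7% of all windows. ATGNAAAT, which resembles the octamer bound by Oct factors, was added to the search after the Il4ra sequence had been read. It occurred 3 times in the Il4ra window, at 139 to 132, 67 to 60 and 34 to 27 bases upstream, compared with 3 or more copies in 0.0365% and any copy in 5.03% of all windows. Since the motif was chosen after that reading, these shares are no test of the Il4ra window. The copies do not overlap the GGGCGG of the same window, at 76 to 71 bases upstream.

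Tc9 cells had higher levels of Il6ra, Il4ra, Il6st and Il2ra than Tc1 cells, by 5.18, 3.15, 1.84 and 1.5 times in the fitted model. No receptor gene was called lower in Tc9 cells. Thus 4 of 10 genes passed an adjusted p of 0.05 upward and 0 downward by the quasi-likelihood test of edgeR, and at an unadjusted p under 0.05 the counts were 5 and 0. Without the filter on low counts, 0 receptor genes and 0 of 3431 genes in all were called. Among the 2622 genes tested over the same 3 libraries, 20.4% were called, 12.5% higher and 7.93% lower. Counts were also scaled to depth and by the TMM factors of the fit. On this scale, the Tc1 value of all 10 receptor genes lay outside the range of the Tc9 pair, 6 below and 4 above it. But so it did in 81.8% of all genes tested, 41.8% below and 40% above. With 1 library against 2, exact permutation of the labels gives no p under 0.333 for one gene. The median log2 fold change of the receptor genes was 0.41, beside 0.02 for all genes tested. The plot of receptor levels by library gives all values.

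**Figure D1:**
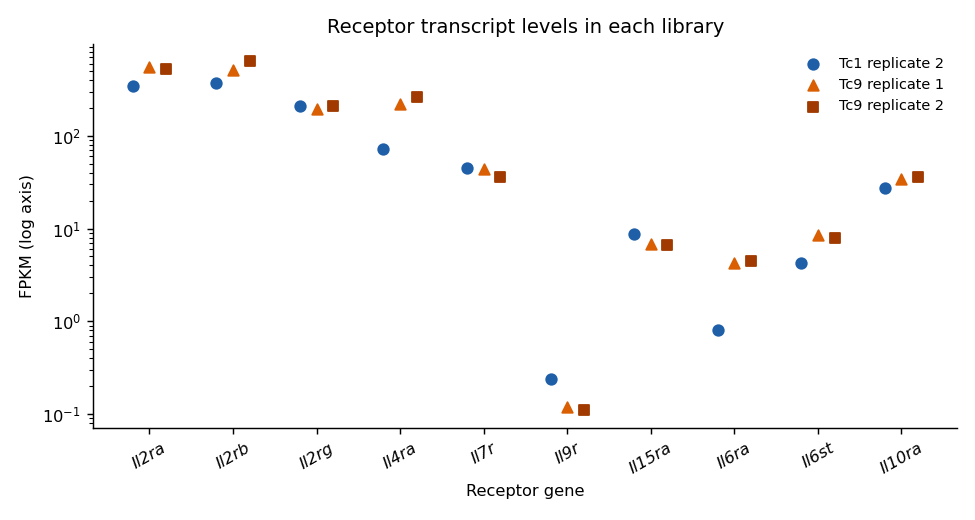
Levels of the 10 receptor genes in FPKM, on a log axis, in each of the 3 libraries that reach them. Each point is 1 pooled library. The Tc9 libraries lie well above the Tc1 library for Il4ra and Il6ra and below it for Il9r, and the other genes lie closer together.

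Among the chains of the IL-2 and IL-15 receptors, Il2ra and Il2rb had the highest levels of all 10 genes. Il2ra, the chain that gives the IL-2 receptor its high affinity (chr2:11642792-11693194), was measured at 341 FPKM in Tc1 replicate 2 and at 556 and 521 FPKM in Tc9 replicates 1 and 2. The lower Tc9 library thus exceeded the Tc1 library, by more than the Tc9 libraries differed from each other. It rose with a log2 fold change of 0.59 ± 0.22 (SE; edgeR adjusted p = 0.0362), and 19.1% of all genes tested had a larger one. The call was lost in DESeq2 (adjusted p = 0.0751), limma voom (adjusted p = 0.0533) and limma on log2(FPKM + 1) (adjusted p = 0.0776). It was also lost in limma on log2(FPKM + 0.1) (adjusted p = 0.103), so it lies at the edge of what 3 libraries resolve. Foxp3, the factor that defines regulatory T cells, a cell type with high Il2ra, had 34.6 counts (0.19 FPKM) in Tc1 replicate 2 and 1592 counts (13.7 FPKM) in Tc9 replicate 2, the libraries that reach it. Cd4 was at 45, 56 and 58 counts in Tc1 replicate 2 and Tc9 replicates 1 and 2. Cd40lg, the other gene of that marker list, had 11 counts in Tc1 replicate 2 and 2 counts in Tc9 replicate 2. The part of Foxp3-expressing cells in the level of Il2ra was not tested.

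Il2rb, the signalling chain shared by the IL-2 and IL-15 receptors (chr15:78479256-78511621), was at 372 FPKM in Tc1 replicate 2, 516 FPKM in Tc9 replicate 1 and 634 FPKM in Tc9 replicate 2. Both Tc9 libraries were above the Tc1 library, and they also differed from each other. Its log2 fold change of 0.56 ± 0.23 did not pass (edgeR adjusted p = 0.0651), and with library size alone as the scaling it did (adjusted p = 0.0221). Il15ra, which presents IL-15 to the beta and gamma chains, was far lower, at 8.80, 6.84 and 6.58 FPKM in Tc1 replicate 2 and Tc9 replicates 1 and 2 (chr2:11705172-11733985). The log2 fold change of its counts was -0.18 ± 0.25 (edgeR adjusted p = 0.662), with bounds of -0.67 and 0.31 at 2 SE on either side. Its FPKM ratio of Tc9 to Tc1 was 0.763 and its fitted fold in counts was 0.882. These values differ because FPKM is divided by a length, and the mean transcript length assigned to Il15ra was 2380 bases in Tc1 replicate 2 and 2964 and 2755 bases in Tc9 replicates 1 and 2. This ratio of 1.201 between groups was exceeded in either direction by 0.715% of 1958 genes with at least 100 counts. The table lists 9 transcripts for Il15ra, 2 of them under the sequencing provider's own names, and how the length was weighted over them is not given in the sources used here. Il15ra was singled out for this after its lengths had been seen.

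The common gamma chain itself was nearly level. Il2rg (chrX:101264385-101268255) was at 208 FPKM in Tc1 replicate 2 and at 196 and 212 FPKM in Tc9 replicates 1 and 2. The Tc1 value lay between those of the Tc9 libraries on this scale. It was just above both only once counts were scaled to depth and by the TMM factors. The log2 fold change was -0.10 ± 0.25 (edgeR adjusted p = 0.831), and 2 SE on either side of it reach from -0.60 to 0.41. In bulk RNA of sorted cells, fewer cells that express a gene and less RNA per cell cannot be told apart.

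Il4ra, the chain that binds IL-4 and also forms part of the IL-13 receptor (chr7:125552271-125579474), rose the most within the gamma chain family. It was at 72.5 FPKM in Tc1 replicate 2, 219 FPKM in Tc9 replicate 1 and 263 FPKM in Tc9 replicate 2, or 11551, 33931 and 40320 counts. Both Tc9 libraries were far above the Tc1 library, and they differed much less from each other. The log2 fold change was 1.66 ± 0.25 (edgeR adjusted p = 1.27e-09), and 6.26% of the genes tested had a larger one. Culture with IL-4 before the transfer is part of what sets the groups apart, and it cannot be told apart from their other differences. B cells also carry Il4ra. Cd79b had 155, 380 and 473 counts in Tc1 replicate 2 and Tc9 replicates 1 and 2, Ms4a1 was near 0 as given above, and their part in the result was not tested.

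Il7r, which with the gamma chain binds the survival cytokine IL-7 (chr15:9506159-9529941), had 44.7 FPKM in Tc1 replicate 2 and 43.6 and 35.7 FPKM in Tc9 replicates 1 and 2. Tc9 replicate 1 was close to the Tc1 library, and the gap between the Tc9 libraries was larger than the gap between Tc9 replicate 1 and Tc1. The log2 fold change of -0.21 ± 0.26 did not pass (edgeR adjusted p = 0.630), with bounds of -0.72 and 0.31 at 2 SE.

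Il9r, the receptor chain for IL-9 and the one this study's question about IL-9 signalling turns on, was the lowest of the 10 (chr11:32187544-32205283). It had 23 counts (0.24 FPKM) in Tc1 replicate 2, 11 counts (0.12 FPKM) in Tc9 replicate 1 and 10 counts (0.11 FPKM) in Tc9 replicate 2. These counts were above the 3 counts taken as the floor of a library, but only 3.93% and 3.05% of the genes tested had a lower FPKM in the respective Tc9 libraries. The Tc1 library was the highest of the 3. The log2 fold change was -1.15 ± 0.61 (edgeR adjusted p = 0.179), which did not pass. Counting error alone gives a 95% interval of -2.09 to -0.24 for the log2 ratio, which lies below 0 and does not include the spread between pools. Il9r had 0.000613 and 0.000519 of the FPKM of Il2rg in Tc9 replicates 1 and 2, so per length the gamma chain had 1632 and 1927 times the level of the IL-9 receptor chain.

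The chains of the IL-6 receptor both rose. Il6ra, the IL-6-binding chain (chr3:89869324-89913196), was at 0.80 FPKM in Tc1 replicate 2, 4.29 FPKM in Tc9 replicate 1 and 4.47 FPKM in Tc9 replicate 2, with 83, 432 and 446 counts. The Tc9 libraries were nearly equal and the Tc1 library was far below them. It had the largest log2 fold change of the 10 genes, 2.37 ± 0.30 (edgeR adjusted p = 3.80e-13), which 3.51% of all genes tested exceeded. Il6st, which encodes gp130 (chr13:112464070-112506860), was at 4.28 FPKM in Tc1 replicate 2 and at 8.62 and 7.95 FPKM in Tc9 replicates 1 and 2. The Tc9 libraries again lay close together and above the Tc1 library, with a log2 fold change of 0.88 ± 0.26 (edgeR adjusted p = 0.00511). The call for Il6st was lost on the log2(FPKM + 0.1) scale (limma adjusted p = 0.0560).

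Il10ra, the chain that binds IL-10 (chr9:45253837-45269149), was at 27.6 FPKM in Tc1 replicate 2 and at 34.1 and 36.0 FPKM in Tc9 replicates 1 and 2. Both Tc9 values were above the Tc1 value by a small margin. The log2 fold change was 0.27 ± 0.26 (edgeR adjusted p = 0.514), and 2 SE on either side reach from -0.25 to 0.79. As a measure of how far libraries of a group can lie apart, 95% of the 2068 genes with at least 100 counts differed between the Tc9 libraries by less than 0.532 on the log2 scale. The fold changes of Il6ra, Il4ra, Il6st, Il2ra and Il2rb were larger than this upward. That of Il2rb was the smallest of these, and 20.1% of all genes tested had a larger one. Without Tc9 replicate 2 the log2 value of Il2rb was 0.41, and without Tc9 replicate 1 that of Il2ra was 0.52. The fold change of Il9r was larger downward but rests on under 100 counts, and those of Il2rg, Il7r, Il15ra and Il10ra were smaller. In the part of the tables that Tc1 replicate 1 reaches, the same measure was 0.223 for the pair of Tc1 libraries and 0.526 for the Tc9 pair. The plot of fold changes places the receptor genes among all genes tested.

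**Figure D2:**
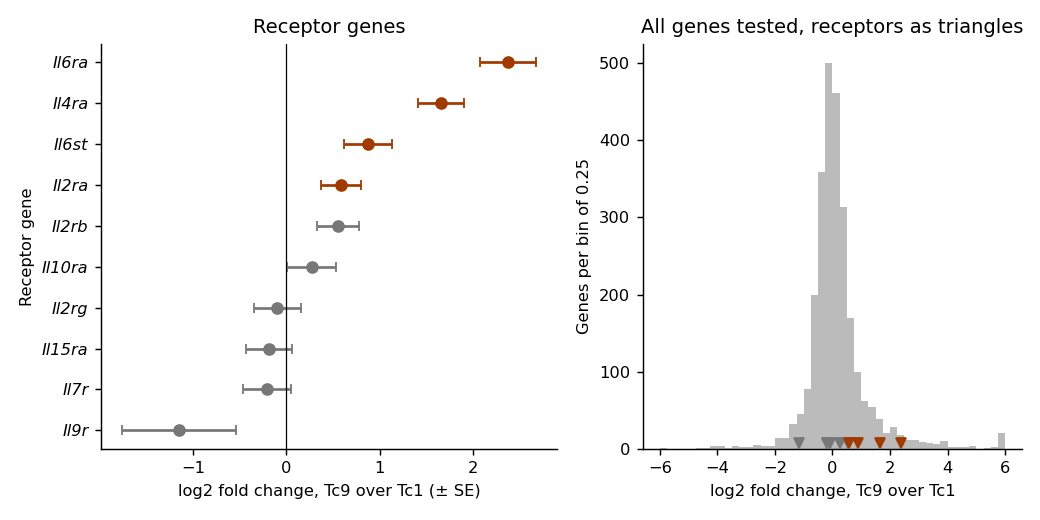
Left, log2 fold change of each receptor gene, Tc9 over Tc1, with SE from edgeR over 3 libraries, in brown where the adjusted p was under 0.05. Right, the same values as triangles on the distribution of all 2622 genes tested, in bins of 0.25, with values beyond 6 drawn at 6. Il6ra and Il4ra lie in the right tail, and Il9r lies in the left tail with the widest error.

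Set in order by their mean level in Tc9 cells, the receptor genes ran from Il2rb (575 ± 83 FPKM, SD, n = 2 libraries) and Il2ra (539 ± 25) over Il4ra (241 ± 31), Il2rg (204 ± 11), Il7r (39.6 ± 5.7), Il10ra (35.0 ± 1.3), Il6st (8.29 ± 0.47), Il15ra (6.71 ± 0.18) and Il6ra (4.38 ± 0.13) to Il9r (0.115 ± 0.007). Il2rb and Il2ra could not be ranked against each other, since their Tc9 libraries overlapped, nor could Il7r and Il10ra. All other neighbours in this order were separated in both Tc9 libraries, although Il4ra exceeded Il2rg by 1.18 times only and Il6st exceeded Il15ra by 1.24 times only. In the Tc1 library the order differed at these neighbours. Il4ra was at 0.349 of Il2rg there, and Il6st was at 0.486 of Il15ra. Compared with all genes tested, Il2ra and Il2rb were above 97.9% and 98.3% of genes in the Tc1 library and above 98.9% to 99.1% in the Tc9 libraries. Il4ra was above 87.0% of genes in Tc1 replicate 2 and above 96.8% and 97.4% in Tc9 replicates 1 and 2.

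Since the chains of one receptor are needed together, their levels were also expressed per level of the shared chain. Il4ra relative to Il2rg was 0.349 in Tc1 replicate 2, 1.12 in Tc9 replicate 1 and 1.24 in Tc9 replicate 2, so that in both Tc9 libraries the specific chain exceeded the common one. Il2rb relative to Il2rg was 1.79, 2.64 and 2.99 in the same order, and Il2ra relative to Il2rg was 1.64, 2.84 and 2.46. Il7r relative to Il2rg was 0.215, 0.223 and 0.168, without a separation that both Tc9 libraries shared. The 4 partners of the gamma chain among the 10 genes (Il2rb, Il4ra, Il7r and Il9r) summed to 2.35 times Il2rg in the Tc1 library and to 3.98 and 4.40 times in Tc9 replicates 1 and 2. Il21r, a further partner, is not in this sum because Tc9 replicate 2 alone reaches it.

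Within that sum the share of Il4ra was 14.8% in the Tc1 library, compared with 28.1% and 28.2% in the Tc9 libraries, and the share of Il7r was 9.14%, 5.60% and 3.82%. Il2rb made up most of it in every library, at 76.0%, 66.3% and 68.0%. Il4ra thus came to 1.62 times Il7r in the Tc1 library and to 5.01 and 7.36 times Il7r in the Tc9 libraries. In the IL-6 receptor, Il6ra relative to Il6st was 0.187 in the Tc1 library, compared with 0.498 and 0.562 in the Tc9 libraries, so the binding chain stayed below gp130 in all 3 libraries while coming closer to it in Tc9 cells. Il15ra relative to Il2rb was 0.0237, 0.0133 and 0.0104. These ratios are descriptions without a test, as they reuse the levels above, and mRNA ratios do not give the numbers of receptors on the cell surface.

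**Figure D3:**
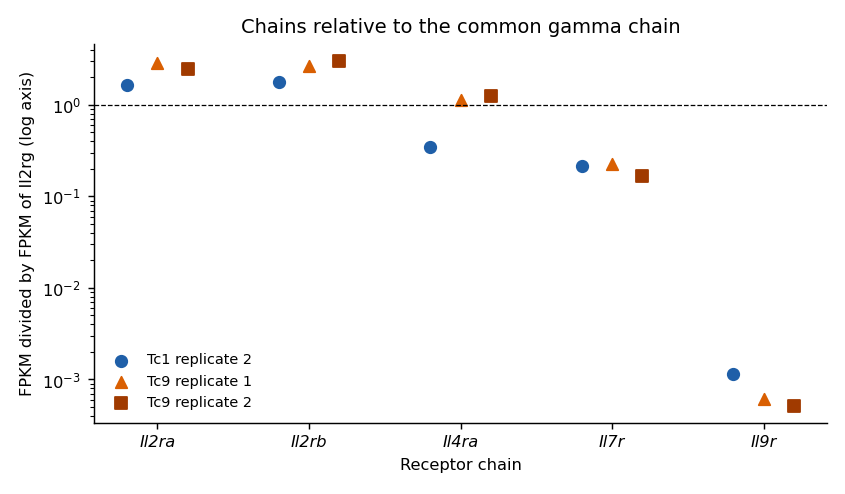
FPKM of 5 receptor chains divided by the FPKM of Il2rg in the same library, on a log axis. The dashed line marks equal levels. Il4ra crosses this line between the Tc1 library (0.349) and the Tc9 libraries (1.12 and 1.24), Il7r stays near 0.2 and Il9r stays below 0.002.

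The cytokines that these receptors bind were followed through a list of 14 ligand genes, of which 10 were within reach of the 3 libraries and 6 passed the filter on low counts (minimum 10). Il9, Il10 and Il4 were under 10 counts in the Tc1 library and passed through the Tc9 libraries alone, where they are high, so that they had to differ once they passed. They are given by their values without a test, and no count or median over the ligands is given. Il9, the cytokine by which Tc9 cells are defined, had 3, 2601 and 2667 counts in Tc1 replicate 2, Tc9 replicate 1 and Tc9 replicate 2, at least 853-fold higher in either Tc9 library than 3 counts in the Tc1 library. Tc9 cells thus combined 212 and 218 FPKM of Il9 with 0.12 and 0.11 FPKM of Il9r. Il10, an anti-inflammatory cytokine that signals through STAT3, had 8 counts (0.22 FPKM) in Tc1 replicate 2 and 1094 and 891 counts (30.2 and 24.8 FPKM) in Tc9 replicates 1 and 2. The transcript of its binding chain differed far less, as given above for Il10ra.

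Il13, which like IL-4 signals through the chain encoded by Il4ra, was at 6.84, 33.1 and 38.7 FPKM in Tc1 replicate 2 and Tc9 replicates 1 and 2, a log2 fold change of 2.32 ± 0.28 (edgeR adjusted p = 9.11e-15). Il4 itself was scarce, with 4, 36 and 37 counts in the same order. Lif, a cytokine that uses gp130, rose from 23.5 FPKM to 52.7 and 54.4 FPKM (log2 fold change 1.11 ± 0.27, edgeR adjusted p = 0.000491). Osm, another user of gp130, was reached by the replicate 2 libraries only and had 29.0 FPKM in Tc1 and 56.6 FPKM in Tc9, without a test. Of the receptor chains named for these cytokines, Lifr had 0, 2 and 3 counts in Tc1 replicate 2 and Tc9 replicates 1 and 2. Il13ra1 had 1, 0 and 3 counts in the same order, and Osmr had 1 count in Tc1 replicate 2 and 0 in Tc9 replicate 2. None of these values exceeded the 3 counts taken as the floor of a library. Il11 had 12, 7 and 12 counts and did not pass (edgeR adjusted p = 0.783), and Il21, which only the table of Tc9 replicate 2 reaches, had 15 counts there.

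Of 22 other receptor genes of these and neighbouring families, 11 passed the filter on low counts, 1 of them through a Tc9 library alone, which is left out here. Of the others, 1 rose, 1 fell and 8 did not pass the test, which is near the 12.5% higher and 7.93% lower among all genes tested. Ifngr2, the signalling chain of the IFN-γ receptor, was at 6.38 FPKM in Tc1 replicate 2 and at 21.8 and 18.6 FPKM in Tc9 replicates 1 and 2 (log2 fold change 1.59 ± 0.27, edgeR adjusted p = 6.11e-08). Il10rb, the signalling partner of Il10ra, was at 22.44 FPKM in the Tc1 library and at 15.01 and 13.45 FPKM in the Tc9 libraries (log2 fold change -0.73 ± 0.24, edgeR adjusted p = 0.0150), and this call was lost on both log2 FPKM scales (limma adjusted p = 0.115 and 0.135). Of the chains of the IL-10 receptor, Il10ra thus had higher and Il10rb lower values in Tc9 cells, and the difference between these changes was not tested. The chains of the IL-12 receptor, Il12rb1 and Il12rb2, had log2 fold changes of 0.28 ± 0.26 and 0.47 ± 0.26 and did not pass (edgeR adjusted p = 0.485 and 0.211). Il21r, whose product also pairs with the gamma chain, was at 114 FPKM in Tc9 replicate 2, the one table that reaches it.

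Among the kinases that these receptors recruit, 3 of 4 were within reach. Of the 3 tested, 2 rose and none fell, with a median log2 fold change of 0.92. Among all genes tested, 12.5% were called higher and 7.93% lower, with a median of 0.02. The count of 2 came to 1 with limma on log2(FPKM + 1) and to 0 on log2(FPKM + 0.1). Jak3, the kinase bound by the common gamma chain, was at 54.0 FPKM in Tc1 replicate 2 and at 81.3 and 133 FPKM in Tc9 replicates 1 and 2. Both Tc9 libraries were higher, but far apart (log2 fold change 0.92 ± 0.26, edgeR adjusted p = 0.00394), and the call was lost in limma on log2(FPKM + 1) (adjusted p = 0.0748) and log2(FPKM + 0.1) (adjusted p = 0.156). Jak2, which serves gp130 among others, was at 15.6 FPKM in the Tc1 library and at 35.1 and 27.3 FPKM in the Tc9 libraries (log2 fold change 0.93 ± 0.27, edgeR adjusted p = 0.00430), and the call was lost on the log2(FPKM + 0.1) scale (limma adjusted p = 0.0692). Jak1, which is bound by Il2rb, Il4ra, Il7r, Il9r and gp130, was at 56.9, 78.3 and 80.0 FPKM and did not pass (log2 fold change 0.40 ± 0.25, edgeR adjusted p = 0.276). Tyk2 was reached by Tc9 replicate 2 alone, at 16.3 FPKM.

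The 7 STAT genes were reached by the replicate 2 libraries only and have no test. Their counts were scaled to depth and by the TMM factors of the fit of the receptor genes. The Tc9 value was then higher in 6 genes, in 1 of these by a log2 ratio of only 0.01, and lower in 1. The share of all genes with a higher value in this range was not determined, so this count is not a result about STAT genes. Stat3, the main factor downstream of IL-6 and IL-10, had 83.5 FPKM in Tc1 and 130 FPKM in Tc9. The log2 ratio of its scaled counts was 0.55. The ratio was 0.68 for Stat5a, a factor activated by IL-2, with 46.1 FPKM in Tc1 and 77.8 FPKM in Tc9. With 1 library a group, ratios of this size cannot be set against the spread between pools.

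Genes that these pathways induce or that restrain them formed a list of 15. Of the 9 tested, 1 rose and 1 fell, with a median log2 fold change of 0.06. This is near the 12.5% higher, the 7.93% lower and the median of 0.02 among all genes tested. Socs1, an inhibitor of JAKs that cytokine signals induce, was at 42.2 FPKM in Tc1 replicate 2 and at 70.6 and 108 FPKM in Tc9 replicates 1 and 2 (log2 fold change 1.01 ± 0.27, edgeR adjusted p = 0.00157), and the call was lost on the log2(FPKM + 0.1) scale (limma adjusted p = 0.104). Ccnd2, which encodes cyclin D2 and is induced by IL-2 in T cells, was lower in Tc9 cells. It is the one gene of these lists named here that all 4 libraries reach, with 229 and 233 FPKM in the Tc1 libraries, and 163 and 142 FPKM in the Tc9 libraries. The Tc9 libraries lay below both Tc1 libraries, as they did in 35.7% of the genes tested over all 4. Its log2 fold change was -0.63 ± 0.11 over 4 libraries (edgeR adjusted p = 0.00178, with 16.7% of 1284 genes called lower there) and -0.68 ± 0.22 over 3 libraries (edgeR adjusted p = 0.0147). The 3-library call was lost on the log2(FPKM + 1) and log2(FPKM + 0.1) scales (limma adjusted p = 0.109 and 0.146). Cish, a feedback inhibitor induced by STAT5, was at 114 FPKM in Tc1 replicate 2 and at 146 and 194 FPKM in Tc9 replicates 1 and 2 and did not pass (log2 fold change 0.54 ± 0.25, edgeR adjusted p = 0.110). Among genes of the list that the replicate 2 libraries alone compare, 3 had higher and 3 had lower values in Tc9, Myc with 228 FPKM in Tc1 and 331 FPKM in Tc9 and Pim2 with 138 and 180 FPKM among the former.

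**Figure D4:**
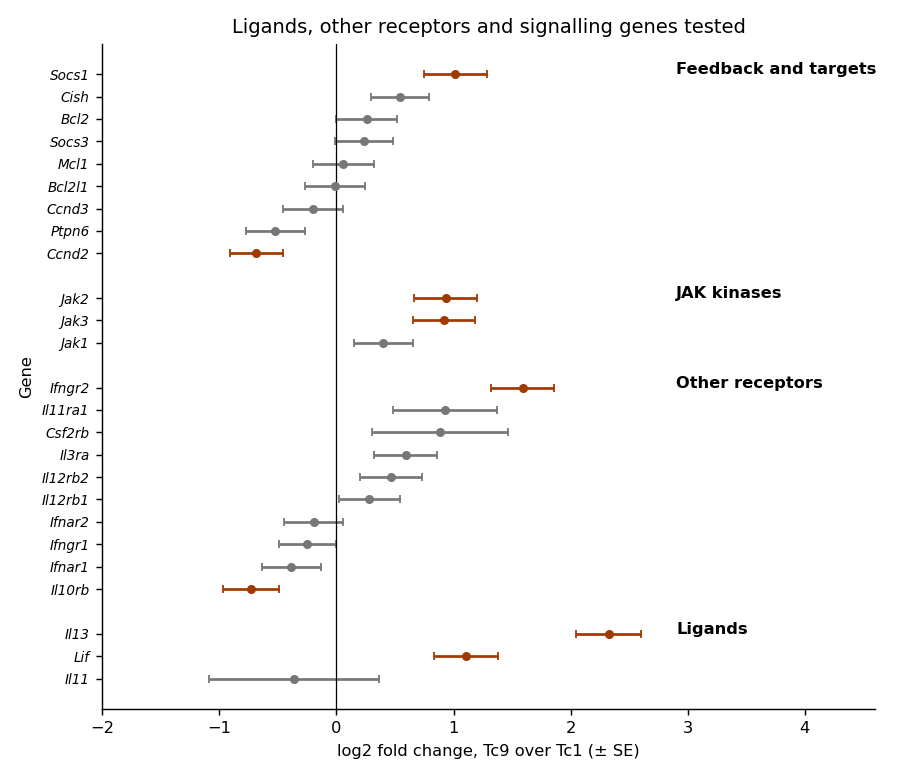
Log2 fold change, Tc9 over Tc1, with SE from edgeR over 3 libraries, of the genes with at least 10 counts in the Tc1 library in the lists of ligands, other receptors, JAK kinases, and feedback and target genes, so that Il9, Il10 and Il4 are not drawn. Brown points have an adjusted p under 0.05. Il13 lies furthest to the right at 2.32, and most genes lie within 1 of 0.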

How the data were processed

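Each group, Tc1 or Tc9 cells sorted from tumors, had 2 libraries of pooled RNA. The authors deposited one table per library with expected counts per gene, which are not normalized, FPKM values, which they scaled by length and depth, and gene lengths. The build was mm10 per the submitters' processing notes, and the aligner and counting program are not given in the sources used here. Each comparison was limited to the identifiers that its libraries reach, 3436 genes for the 3 libraries with all receptor genes, and a gene not listed within that range was taken as 0. Depths were 31834276 and 31927162 counts for the Tc1 libraries and 31105615 and 30822953 counts for the Tc9 libraries, each in the order of the replicate number, the first 3 derived from counts, lengths and FPKM, so that 3 counts equal 0.0942, 0.0940, 0.0964 and 0.0973 CPM. Floors and intervals cover counting error only. A row cut short was left out (1 row).

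Expected counts were rounded and tested two-sided in edgeR 4.0.16 (R 4.3.3) by the quasi-likelihood test with TMM factors (0.967, 1.01 and 1.03), a filter by filterByExpr (minimum count 10) and the adjustment of Benjamini and Hochberg over all genes tested. With 1 residual degree of freedom, the prior degrees of freedom were infinite, so every gene took the spread shared across genes and its own Tc9 spread did not enter its p-value. Alternatives used limma 3.58.1 and DESeq2 1.42.0. The test was tested on simulated data. P-values measure the spread between pooled samples, whose independence is not stated. The receptor genes and the pathway lists were chosen with earlier results of these data known. From the lists, genes past an adjusted p of 0.05 and up to 3 more with the highest mean FPKM were named, except for an item that is not reported here. Genes named outside that rule are cell type markers, and Lifr, Il13ra1 and Osmr, which are given for their ligands.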

Additional observations from a re-analysis of the deposited data

How the results depend on the processing

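The edgeR count of 4 receptor genes higher in Tc9 cells came to 3 with limma on log2(FPKM + 1), limma voom or DESeq2 (217 genes higher and 121 lower in all), to 5 with library size alone as the scaling, and to 2 with limma on log2(FPKM + 0.1), where 197 of all genes tested were higher and 78 lower. On the log2(FPKM + 1) scale 112 of all genes were lower, where edgeR with the filter gave 327 higher and 208 lower. Without the filter on low counts, 0 receptor genes and 0 of 3431 genes in all were called in either direction, 611 genes in all had an unadjusted p under 0.05, and the prior degrees of freedom by which edgeR shares spread across genes were 1.84, compared with infinite with the filter. The smallest adjusted p of a receptor gene was then 0.123 for Il6ra. Il4ra and Il6ra passed under every other alternative that has a test, with log2 fold changes of 1.64 to 1.73 and 1.58 to 2.45. No receptor gene changed sign under any alternative. Leaving out either Tc9 library gives log2 values without a test, and leaving out Tc1 replicate 2 leaves no Tc1 library and was not run. No paired analysis was possible because the libraries that reach the receptor genes share only 1 replicate number between the groups. The low counts of Il9r, 10 to 23, give it the widest SE of the receptor genes.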
